A study of Mus musculus with 16 samples.

Results

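Broad RNA polymerase II (Pol II) regions in mouse neural progenitor cells were described, that is, stretches of 1200 bp or more over which the Pol II list of cells treated with control siRNA ran without a break of more than 200 bp. They numbered 388 of the 15677 merged autosomal regions of that list (2.47%), and of 16073 regions on all chromosomes. They were chosen by their length in the control siRNA Pol II list, so those lengths, and the signal of that library inside the regions, are given as a description only.

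The data are chromatin immunoprecipitation with sequencing (ChIP-seq) from progenitors of the mouse embryonic stem cell line V6.5, grown for 4 days as embryoid bodies and then as a monolayer. Pol II, Med26 and Cdk8 were mapped after Cbx3 siRNA and after control siRNA against luciferase, each with 1 library per antibody, harvested 72 hours after transfection. Cbx3 had 2 libraries (sets 1 and 2) and Pol II had 1 from cells with no treatment. All cells came from this one line, no genetic alteration is given in the labels, and how far Cbx3 fell in these cells was not analysed here. Each list holds windows of 50 bp with a signal value, 101091 for Pol II after Cbx3 siRNA, 116001 after control siRNA and 34855 untreated. The other lists held 2721 and 15546 windows for Med26 and 10955 and 9960 for Cdk8 (Cbx3 siRNA and control siRNA), and 923942 and 244855 for Cbx3 sets 1 and 2. Windows below a minimum (6.01 in both siRNA Pol II lists, 9.02 in the untreated one) are missing, so total depth is unknown, and an unlisted window may hold signal just under that minimum. How windows passed was not given, so an unlisted window may also hold higher signal. Of 483 windows in broad regions with a control siRNA signal of 50 or more, 465 were listed after Cbx3 siRNA. With 1 library per siRNA arm there is no replicate check and no p-value. Regions are not replicates, and the 95% intervals given (Wilson for shares, binomial order statistics for medians) cover counting error only. The gene table at hand is of the build GRCm38 while the submitters' processing notes name mm9, so genes, strand and progenitor marker genes were not analysed here, and regions are given by mm9 position.

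Pol II transcribes protein-coding genes, and in ChIP-seq it usually piles up in a narrow peak near a start site, with lower signal along the gene body and past its end. Mediator is the coactivator complex that links transcription factors to Pol II. Med26 is the Mediator subunit known for recruiting elongation factors, and Cdk8 is the kinase of a module that binds Mediator reversibly. Cbx3 (HP1 gamma) is a heterochromatin protein that is also found along transcribed genes.

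The broad regions were few, but long enough to hold 9.89% of the listed autosomal Pol II length of the control siRNA list and 11.3% of its summed signal, together 563.9 kb. Their spans ran from 1200 to 5500 bp, with a median of 1400 bp and quartiles of 1250 and 1650 bp, against a median of 300 bp in the 15289 narrower regions. Spans of 2000 bp or more were seen in 47 members, 39 of them under 3000 bp and 8 longer. The list ran without any break through 199 members, while 146 had 1 gap and 43 had 2 or more. Counting listed bases alone, 316 members reached 1200 bp. Their highest control signal had a median of 38.98 (range 15.5 to 158), against 17.8 in the narrower regions, so each comparison below weights narrower regions to the same classes of highest control signal, 0.5 log2 wide. So weighted, 10744 narrower regions had a median highest signal of 37.7 and a median span of 550 bp.

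At the limit of the rule the members passed gradually into the rest in highest control signal and listed length. The 59 regions of exactly 1200 bp had a median highest control signal of 39.5, and the 84 of 1150 bp, just outside, had 37.5. Their listed Pol II was 850 bp at 1200 and 800 bp at 1150 after Cbx3 siRNA, and 450 and 350 bp in untreated cells. Other measures varied unevenly over spans of 1100, 1150, 1200 and 1250 bp. Control siRNA Med26 was listed in 64.9%, 58.3%, 67.8% and 59.0% of these regions. The median log2 ratio of the highest signal, Cbx3 siRNA over control siRNA, was -0.31, -0.38, -0.24 and -0.30.

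The longest member lay on chromosome 3 from 96361501 to 96367000 and spanned 5500 bp. Pol II was listed there over 3450 bp after Cbx3 siRNA, 5200 bp after control siRNA and 2450 bp in untreated cells, with highest signals of 78.9, 99.5 and 69.0 in that order. Its mean signal over listed windows was 23.8 after Cbx3 siRNA and 23.6 after control siRNA, over different sets of windows. The profile had 2 peaks with a low stretch between them, and the windows missing after Cbx3 siRNA lay mostly in that stretch and beyond the lower peak.

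The next member, on chromosome 17 from 34255401 to 34260050, spanned 4650 bp, with 3350, 4250 and 1700 bp listed after Cbx3 siRNA, after control siRNA and in untreated cells. It carried the longest Med26 listing of all members, with none after Cbx3 siRNA and 1000 bp after control siRNA, and 900 bp of Cbx3 set 1. On chromosome 19 from 5800101 to 5803900, a single tall peak stood inside a low plateau. There the listed length was 3650 bp after Cbx3 siRNA against 3500 bp after control siRNA, and the highest signal was 94.97 against 124. On chromosome 2 from 152221951 to 152225350 no tall peak was present, with a highest signal of 29.99 after Cbx3 siRNA, 35.9 after control siRNA and 19.7 in untreated cells, and 2250, 3200 and 500 bp listed.

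The remaining 6 of the 10 longest lay on chromosome 8 from 87183601 to 87186900, chromosome 14 from 55543251 to 55546450, chromosome 11 from 102178001 to 102181150, chromosome 5 from 143580551 to 143583700, chromosome 13 from 23851701 to 23854500 and chromosome 7 from 29593751 to 29596550. Among the 10, the highest Pol II signal was lower after Cbx3 siRNA than after control siRNA in 10 and the listed length in 9, the exception being the region on chromosome 19. Med26 was listed in 1 of them after Cbx3 siRNA and in 9 after control siRNA. Cbx3 was listed in 10 in set 1 and in 5 in set 2.

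**Figure D1:**
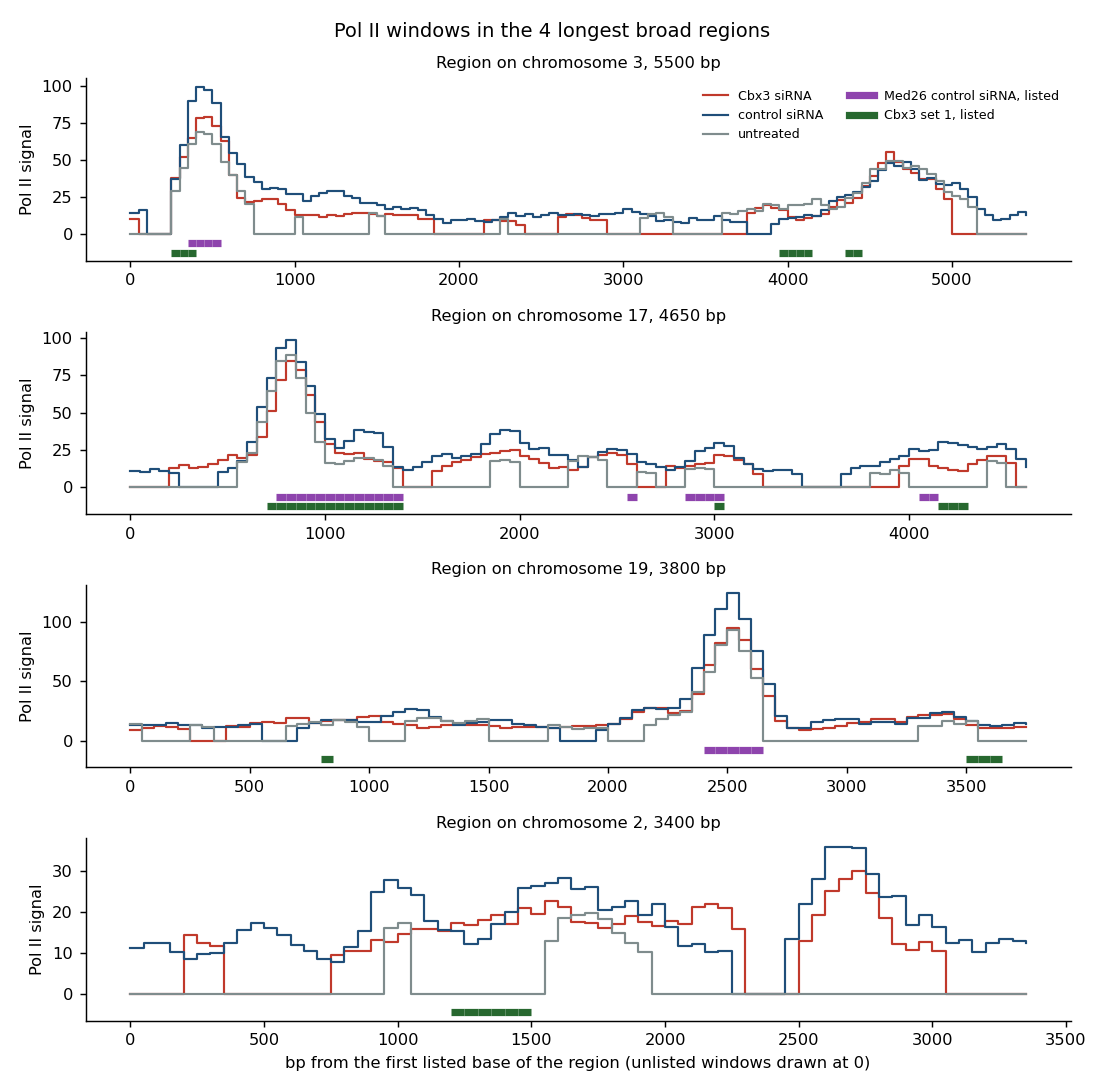
Pol II signal per 50 bp window (y axis, authors' signal) along the 4 longest broad regions (x axis, bp from the first listed base) after Cbx3 siRNA (red), after control siRNA (blue) and in untreated cells (grey), with listed Med26 (control siRNA, purple) and Cbx3 set 1 (green) windows under each trace; unlisted windows are drawn at 0. The regions on chromosomes 3, 17 and 19 hold tall peaks (highest control siRNA signal 99.5, 98.7 and 124) beside low plateaus, while that on chromosome 2 stays at 35.9 or below.

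Most broad regions held 2 or more Pol II peaks. A longer span has more room for peaks, and no like count for narrower regions is given. Counting a peak where the signal stood out by at least 25% of the region's highest value, 119 members had 1 peak (30.7%), 187 had 2 (48.2%) and 82 had 3 or more (21.1%) in the control siRNA list. The same count gave 105, 191 and 91 members after Cbx3 siRNA, and 121, 186 and 68 in untreated cells. In members with several peaks, the first and last lay a median of 850 bp apart. The mean signal was 53.8% of the highest in the median broad region and 65.6% in narrower regions of like signal, in the library whose lengths chose the regions. The highest window fell in the middle of 3 equal parts of the span in 166 members (42.8%), and close to either end, within 1 of 10 equal parts, in 20.

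Broad members were spread over every autosome, with 40 on chromosome 11, 32 on chromosome 7 and 5 on chromosome 18. Some stood close together: 28 had another member within 10000 bp and 67 within 100000 bp. Stretches of 1 Mb with 3 or more members numbered 15 and held 60 members. These stretches had 18 to 82 control Pol II regions each, and like counts were not made for narrower regions. Between 23 and 24 Mb of chromosome 13 lay 11 members among 36 control Pol II regions. Summed over these 11, Pol II was listed over 14450 bp after Cbx3 siRNA, 17200 bp after control siRNA and 10900 bp in untreated cells, with 50 and 550 bp of Med26 (Cbx3 siRNA and control siRNA). Chromosome 3 from 96 to 97 Mb held 6 members, among them the longest one, with 8950, 12350 and 6200 bp in the same order. The untreated list covered a larger part of these 2 clusters than of the members as a whole, where it listed 212750 bp against 563900 bp after control siRNA.

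The untreated library, which played no part in the choice, listed Pol II in 375 of 388 broad regions (96.6%, interval 94.4 to 98.0%), against 88.3% of narrower regions of like signal and 44.9% of all autosomal control regions. The median listed length was 500 bp in untreated cells (quartiles 300 and 750 bp) and 1300 bp after control siRNA. With the untreated minimum of 9.02 applied to every Pol II library, a step chosen after seeing the data, these medians were 500 bp in untreated cells and 1250 bp after control siRNA, with 1000 bp after Cbx3 siRNA. Of the 13 members missing from the untreated list, the highest control signals ran from 15.6 to 29.1, all below the median member at 38.98. The highest signal in control siRNA cells over that in untreated cells had a median log2 ratio of 0.68 (interval 0.64 to 0.73) in 375 members. It was higher by 1.5-fold or more in 225 of them (60%) and lower by as much in 1 (0.267%), against 58.3% and 0.611% of all control regions listed in both. In narrower regions of like signal the median was 0.79, with 70.0% higher and 0.0623% lower by as much. The step in which values run differs between these libraries (0.0220 after control siRNA and 0.0211 untreated), and levels across them are set side by side only.

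Few members were broad in the untreated list itself, which had 18 autosomal regions of 1200 bp or more among 8094. All 18 of them met a broad control siRNA region and 17 met a broad Cbx3 siRNA region. Of the 388 members, 17 were broad in all 3 lists, 144 were broad in the Cbx3 siRNA and control siRNA lists only, 1 was broad in the control siRNA and untreated lists only, and 226 were broad in the control siRNA list alone.

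After Cbx3 siRNA, Pol II was listed in 387 of 388 broad regions (99.7%, interval 98.6 to 99.95%), against 98.6% of narrower regions of like signal and 68.0% of all autosomal control regions. The single member without any listed window lay on chromosome 6 from 136758751 to 136760100, with a highest signal of 15.6 and 1150 bp listed after control siRNA, and it was missing from the untreated list too. The signal at the highest window was modestly lower. Its median over members was 31.1 after Cbx3 siRNA (quartiles 24.1 and 40.1), 38.98 after control siRNA (30.1 and 51) and 23.9 in untreated cells (18.7 and 33.2). The median log2 ratio, Cbx3 siRNA over control siRNA, was -0.32 (interval -0.37 to -0.30), with 334 of 387 members lower. Regions of like signal that were narrower had a median of -0.40, a broad minus narrower difference of 0.074, which has no test. That difference turned to -0.090 with regions chosen in the Cbx3 siRNA list and was 0.00025 with those chosen in the untreated list.

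Changes past 1.5-fold at the highest window were a minority. Of 387 members, 71 were lower by at least that much (18.3%), against 22.5% of all control regions listed in both libraries and 28.3% of narrower ones of like signal. Only 1 member was higher by 1.5-fold (0.258%, against 1.59% of all such regions and 0.106% of narrower ones of like signal). It lay on chromosome 2 from 128792751 to 128794200, with 56.9 after Cbx3 siRNA, 37.7 after control siRNA and 27.2 in untreated cells. The largest fall was also on chromosome 2, from 35316651 to 35318600, with 12.0 after Cbx3 siRNA, 25.7 after control siRNA and 10.01 in untreated cells. On chromosome 15 from 102502151 to 102503650 the values were 21.3, 44.3 and 24.96. In both regions the Cbx3 siRNA value lay close to the untreated one, and the control siRNA value stood above both. These 3 regions were picked after their values were seen.

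**Figure D2:**
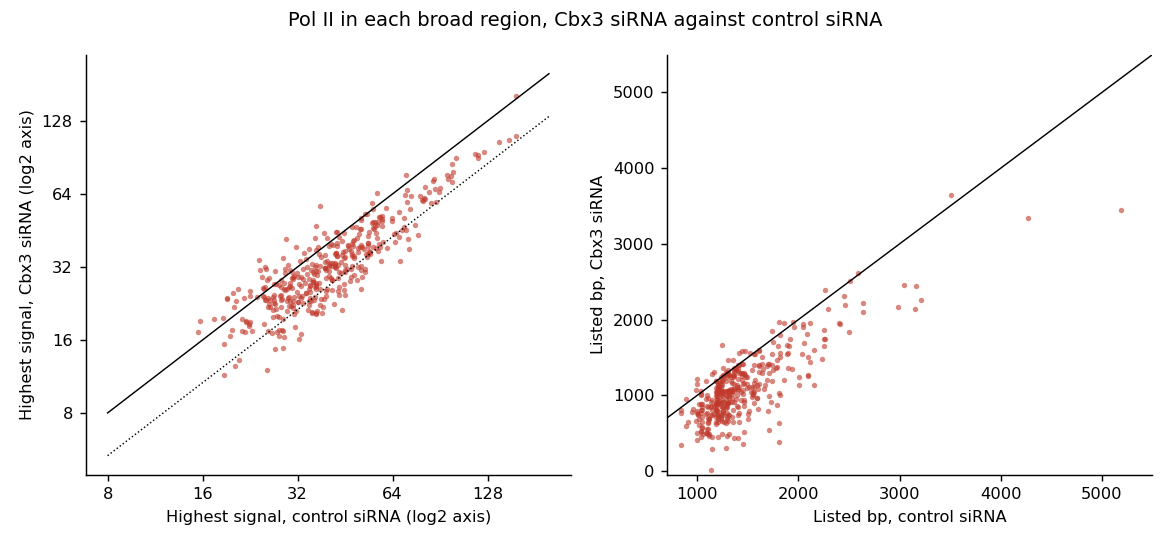
Each point is 1 broad region, with its highest Pol II signal (left, log2 axes) and its listed Pol II length in bp (right, points jittered by up to 18 bp) after control siRNA (x axis) and after Cbx3 siRNA (y axis); solid lines mark equality and the dotted line a 1.5-fold lower value. Highest signals lie below the line in 334 of 387 regions, and listed lengths in 342 of 388, where the control siRNA length also chose the regions.

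Listed length inside the members was shorter after Cbx3 siRNA, but this result turned with the library that chose the regions. The median was 1050 bp after Cbx3 siRNA (quartiles 800 and 1300 bp) and 1300 bp after control siRNA (1200 and 1550 bp), with 342 members shorter, 25 equal and 21 longer. The median log2 ratio was -0.37 (interval -0.42 to -0.33), against -0.29 in narrower regions of like signal. A length lower by 1.5-fold or more was seen in 114 of 387 members (29.5%). The share was 39.2% of all control regions listed in both, but 26.6% of narrower ones of like signal. None was longer by that much, against 0.235% of all and 0.124% of narrower ones of like signal. When regions of 1200 bp or more were chosen in the Cbx3 siRNA list instead, there were 241, with medians of 1300 bp after Cbx3 siRNA and 1200 bp after control siRNA and a log2 ratio of 0.11 (interval 0.06 to 0.14). In 160 of these 241 the Cbx3 siRNA length was the longer one, and in 38 the shorter. The 18 regions chosen in the untreated list, which neither siRNA library picked, gave 1300 bp after Cbx3 siRNA and 1375 bp after control siRNA, with a median log2 ratio of 0.00 (interval -0.19 to 0). Of these 18, 8 were shorter and 2 longer after Cbx3 siRNA.

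The lower highest signal, in contrast, was found with each choice of library. Its median log2 ratio, Cbx3 siRNA over control siRNA, was -0.33 in the 241 regions chosen in the Cbx3 siRNA list, where 203 were lower and 38 higher. It was -0.34 in the 18 regions chosen in the untreated list, where 15 were lower and 3 higher, and -0.32 in the members. Each choice compared the same Cbx3 siRNA and control siRNA libraries, whose listed windows had median signals of 14.7 and 16.6. A difference in depth or pulldown between these libraries cannot be told apart from one between the arms. The mean signal of listed windows was lower by -0.14 (log2) in the members, -0.35 in regions of the Cbx3 siRNA list and -0.31 in those of the untreated list. In the members it was lower by 1.5-fold or more in 7 of 387 (1.81%) and higher in 2 (0.517%), against 10.6% and 1.98% of all control regions listed in both. Narrower regions of like signal had 11.2% and 0.492%. That mean covers different windows in each library, since windows missing from a list do not enter it.

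**Figure D3:**
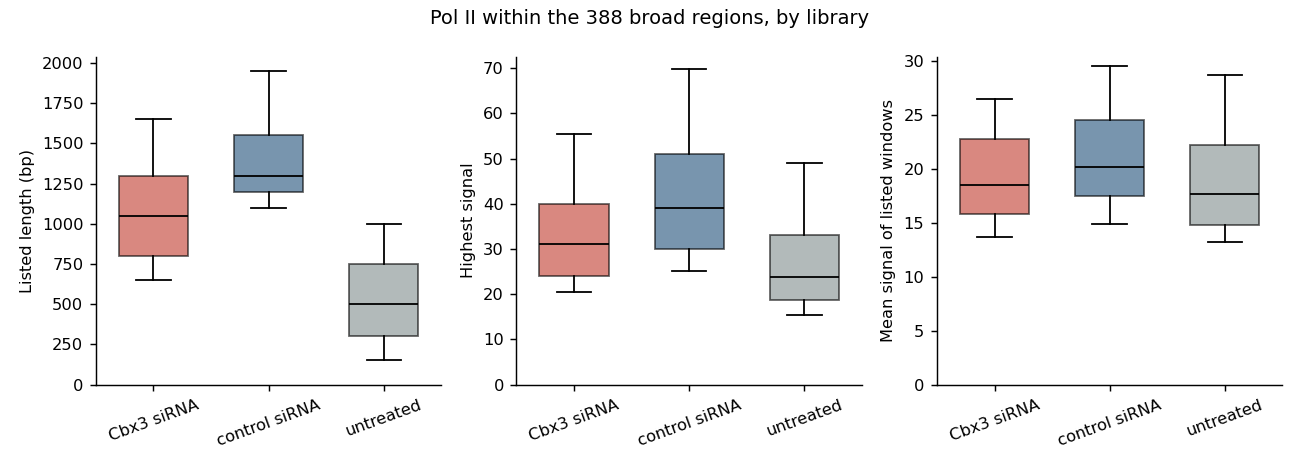
Listed Pol II length (bp), highest signal and mean signal of listed windows (y axes, authors' signal) within the 388 broad regions in the Cbx3 siRNA, control siRNA and untreated libraries; boxes give quartiles, lines the median and whiskers the 10th and 90th percentiles over regions, of which 387, 388 and 375 were listed. Median lengths were 1050, 1300 and 500 bp and median highest signals 31.1, 38.98 and 23.9, while median mean signals lay closer together at 18.5, 20.2 and 17.6.

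The missing length lay more often at the ends than inside. Of 11278 control windows in the members, 8274 were listed again after Cbx3 siRNA (73.4%). Of the 3004 that were not, 1758 lay outside the first and last relisted window (58.5%), 1223 lay between them (40.7%), and 23 belonged to the member without any. Both ends were kept in 57 members, 172 were shorter at 1 end and 158 at both. Listing beyond the control ends was not counted, so by this count an end could be kept or lost but never extended. In return, 348 windows were listed after Cbx3 siRNA in gaps of the control list. Untreated cells listed 4173 of the 11278 windows (37.0%), with 65.6% of the missing ones at the ends.

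At a given control signal, windows in broad regions were relisted at least as often as windows in narrower ones, except in the highest class. Among windows with a control signal under 10, 31.2% were listed after Cbx3 siRNA in broad regions and 20.2% in narrower ones. From 10 to 15 the shares were 53.6% and 46.0%, from 15 to 20 they were 75.1% and 70.0%, and from 20 to 30 they were 91.1% and 88.3%. Between 30 and 50 they were 98.5% in both. Above 50 they were 96.3% in broad and 99.5% in narrower regions, and that class includes the chromosome 17 region from 39980251 to 39982250, where 1050 bp were listed after Cbx3 siRNA against 1800 bp after control siRNA. Over all signals the median log2 ratio of windows in both lists was -0.29 in broad and -0.29 in narrower regions.

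The position of the highest window was mostly kept. After Cbx3 siRNA it lay within 50 bp of the control position in 233 of 387 members (60.2%) and within 200 bp in 304 (78.6%), and it was more than 500 bp away in 39. In untreated cells it lay within 50 bp in 218 of 375 members (58.1%) and within 200 bp in 280 (74.7%). It was more than 500 bp away in 41 of them.

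Members with the largest differences in mean signal were named among those with at least 600 bp listed in both siRNA libraries. The largest fall lay on chromosome 6 from 38383401 to 38384750, with a mean of 14.1 after Cbx3 siRNA, 23.7 after control siRNA and 12.4 in untreated cells. Yet 1200 bp were listed there after Cbx3 siRNA against 1000 bp after control siRNA. The next falls in size lay on chromosome 10 from 83903151 to 83904600 (14.1 after Cbx3 siRNA, 22.8 after control siRNA), chromosome 5 from 88993651 to 88994850 (10.8 and 17.2), chromosome 1 from 74552151 to 74553400 (15.6 and 23.7) and chromosome 17 from 28487101 to 28488500 (10.9 and 16.4). The last 4 had listed lengths of 1150, 600, 950 and 850 bp after Cbx3 siRNA and 1250, 1000, 1100 and 1250 bp after control siRNA.

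The largest rise in mean signal lay on chromosome 8 from 108160051 to 108161400, with 24.7 after Cbx3 siRNA, 15.7 after control siRNA and 17.6 in untreated cells. Its highest signal was 41.7 after Cbx3 siRNA, 29.5 after control siRNA and 25.2 in untreated cells, above both other libraries, although the listed length was shorter at 950 bp against 1350 bp. In the next 3 by mean, the highest signal was lower after Cbx3 siRNA. They lay on chromosome 5 from 148241451 to 148242700 (highest 36.9 after Cbx3 siRNA, 44.4 after control siRNA), chromosome 12 from 112615151 to 112616650 (48.6, 54.9) and chromosome 3 from 121129001 to 121130800 (39.9, 40.8). Their listed lengths were 650, 700 and 650 bp after Cbx3 siRNA and 1250, 1500 and 1800 bp after control siRNA. On chromosome 5 from 34162501 to 34164000, missing from the untreated list, the highest signal was 23.8 after Cbx3 siRNA and 21.6 after control siRNA.

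Med26 was the factor that differed most between the siRNA arms at broad regions. It was listed in 75 of 388 members after Cbx3 siRNA (19.3%, interval 15.7 to 23.6%) and in 271 after control siRNA (69.8%, interval 65.1 to 74.2%). Narrower regions of like signal had it in 12.6% and 52.1% of cases, and all autosomal control regions in 5.35% and 25.9%. Both arms listed it in 68 members, the Cbx3 siRNA arm alone in 7 and the control arm alone in 203. The share with both was 17.5% in the members, 10.4% in narrower regions of like signal and 3.78% in all narrower ones. In the 68 its highest signal had a median log2 ratio, Cbx3 siRNA over control siRNA, of -0.75 (interval -0.91 to -0.67), and 64 of them were lower. The whole Med26 list was far shorter after Cbx3 siRNA (2721 against 15546 windows), and a difference in depth or pulldown between these 2 libraries cannot be told apart from one between the arms.

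Where listed after control siRNA, Med26 covered a median of 200 bp of a member. The chromosome 17 region named above had the most, and 900 bp were listed on chromosome 2 from 126500351 to 126501800, with 350 bp after Cbx3 siRNA. On chromosome 5 from 115939051 to 115940800 Med26 covered 350 bp after Cbx3 siRNA and 850 bp after control siRNA, with highest signals of 15.8 and 27.8. The member on chromosome 15 from 96116901 to 96118150 also had 850 bp after control siRNA. The chromosome 5 region had dense Pol II, with a highest signal of 89.96 after Cbx3 siRNA, 119 after control siRNA and 81.9 in untreated cells. The highest Med26 window lay within 200 bp of the highest Pol II window in 144 of 271 members (53.1%), at a median distance of 200 bp, against 400 bp for all listed Pol II windows of the members.

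Cdk8 was listed in similar numbers of members in both arms. It was found in 101 members after Cbx3 siRNA (26.0%, interval 21.9 to 30.6%) and in 94 after control siRNA (24.2%, interval 20.2 to 28.7%). Narrower regions of like signal had it in 15.03% and 11.6% of cases, and all autosomal control regions 8.75% and 7.30%. Both arms listed it in 38 members (9.79%), the Cbx3 siRNA arm alone in 63 and the control arm alone in 56. Both arms listed it in 4.33% of narrower regions of like signal and in 2.32% of all narrower ones. In the 38 its highest signal had a median log2 ratio of -0.0018 (interval -0.18 to 0.24), Cbx3 siRNA over control siRNA. The most Cdk8 outside the chromosome 17 region from 39980251 to 39982250 was on chromosome 7 from 134889201 to 134890900, with 500 bp after Cbx3 siRNA and 550 bp after control siRNA, highest signals of 25.6 and 32.3. Pol II there was low, at 15.3 after Cbx3 siRNA and 18.7 after control siRNA, and was not listed in untreated cells. On chromosome 8 from 82162551 to 82164100 Cdk8 covered 150 bp after Cbx3 siRNA and 550 bp after control siRNA.

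Cbx3 of untreated cells was listed in 326 members in set 1 (84.0%, interval 80.0 to 87.3%) and in 126 in set 2 (32.5%, interval 28.01 to 37.3%). Both sets listed it in 110 members (28.4%, interval 24.1 to 33.0%). With at least 200 bp required in each set the share was 2.32%, and the gap over narrower regions of like signal was 0.917 points (interval -0.18 to 2.95) in place of 16.1 points. The shares were 58.5%, 17.8% and 12.2% in narrower regions of like signal, and 40%, 12.0% and 7.57% in all autosomal control regions, for set 1, set 2 and both. The share with both sets was 42.9% in the 77 members of 1800 bp or more (interval 32.4 to 54.0%), 22.8% in the 136 from 1400 bp to under 1800 bp and 26.3% in the 175 shorter ones. Median spans of these groups were 2100, 1500 and 1250 bp, a longer member has more room for a listed window, and the part of span was not tested. Beside the chromosome 17 region from 39980251 to 39982250, the most Cbx3 in both sets lay on chromosome 19 from 61302101 to 61304100 (450 bp in set 1 and 800 bp in set 2) and from 40968651 to 40969850 (800 and 250 bp). Chromosome 7 had a member from 123450801 to 123452200 whose shorter length was also 250 bp.

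Broad regions are longer, so the factors were also counted in a fixed window of 1200 bp around the highest Pol II window in both kinds of region, and the gaps were smaller. Control siRNA Med26 was then listed in 64.9% of broad and 55.2% of narrower regions, and Cdk8 after control siRNA in 19.6% and 13.4%. Cbx3 of both sets was listed in 22.7% (interval 18.8 to 27.1%) and 18.4%. Per kb of region, control siRNA Med26 covered 108 bp in broad and 144.5 bp in narrower regions. Cbx3 set 1 covered 153 and 183 bp per kb, and set 2 covered 25.4 and 33.9 bp. Control siRNA Cdk8 covered 21.2 and 21.8 bp per kb. Broad regions thus held control siRNA Med26 and Cbx3 more often as regions but less densely over their length. The broad density of control siRNA Cdk8 included the member with the highest control siRNA Pol II signal. Without that member, control siRNA Cdk8 covered 17.9 bp per kb of broad regions. The narrower value was not recomputed without regions of the same stretch of chromosome 17, so these densities are not set against each other. After Cbx3 siRNA, with all members, Cdk8 covered 23.9 bp per kb in broad and 28.7 bp per kb in narrower regions. With regions chosen in the untreated list, the control siRNA Cdk8 gap turned to -5.45 points (18 regions). These differences have no test, since regions share libraries and are not replicates.

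**Figure D4:**
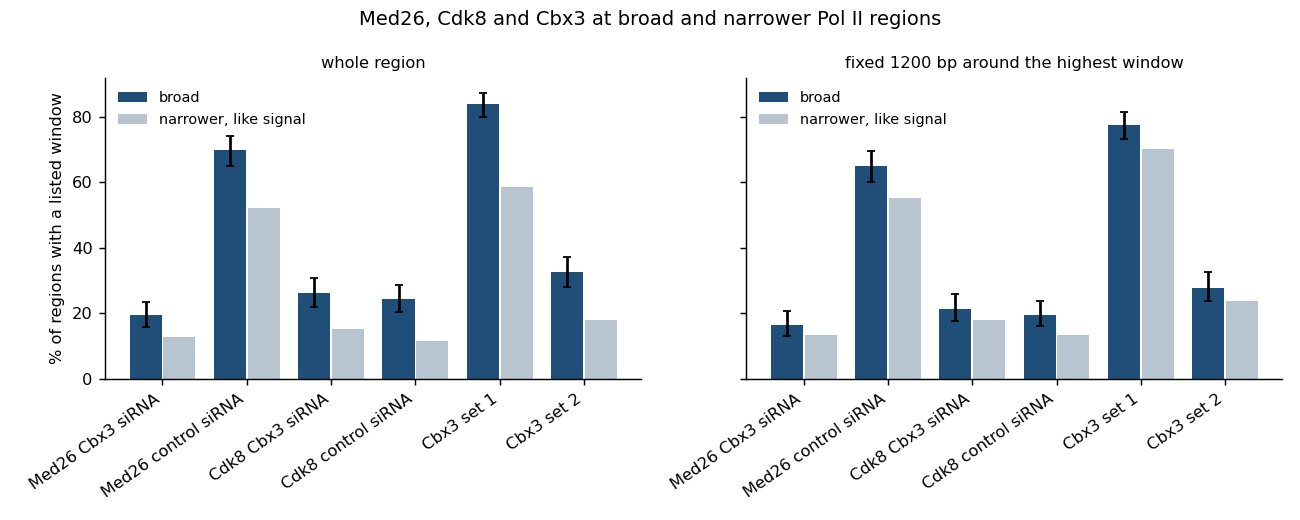
Percent of regions with at least 1 listed window (y axis) of Med26, Cdk8 (Cbx3 siRNA and control siRNA) and Cbx3 (sets 1 and 2) in the 388 broad regions (dark bars, 95% Wilson intervals) and in narrower regions weighted to like highest Pol II signal (light bars), over the whole region (left) and in a fixed 1200 bp window (right). Control siRNA Med26 stood at 69.8% against 52.1% over whole regions and at 64.9% against 55.2% in the fixed window.

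Around the highest Pol II window, the reach of control siRNA Pol II was set by the rule on length and is given as a description, while Med26 at that window was similar in broad and narrower regions. At 500 bp to either side, 51.5% and 50.8% of broad regions had a listed Pol II window after Cbx3 siRNA, 65.7% and 63.9% after control siRNA, and 20.1% and 21.4% in untreated cells. In narrower regions of like signal these shares were 12.0% and 12.2%, 15.5% and 14.3%, and 3.21% and 3.93%. Med26 after control siRNA was listed at the highest window in 23.2% of broad and 20.9% of narrower regions, and in 3.35% and 2.80% after Cbx3 siRNA. At 50 bp to the lower-coordinate side, control siRNA Med26 was listed in 26.8% of broad and 20.6% of narrower regions. At 50 bp to the other side these shares were 21.9% and 20.2%. At 500 bp to either side, control siRNA Med26 was listed in 3.87% and 9.02% of broad regions and in 1.59% and 1.93% of narrower ones. Cbx3 set 1 was listed at the highest window in 21.1% of broad and 22.3% of narrower regions, and 500 bp away in 11.1% and 12.1% of broad and 6.14% and 6.098% of narrower ones. Over the control Pol II windows of the members, the share with control siRNA Med26 was 19.4% from 50 to under 200 bp of the highest window and 6.11% from 800 to under 1200 bp. For Cbx3 set 1 the shares were 18.8% and 12.1%, a shallower decline.

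**Figure D5:**
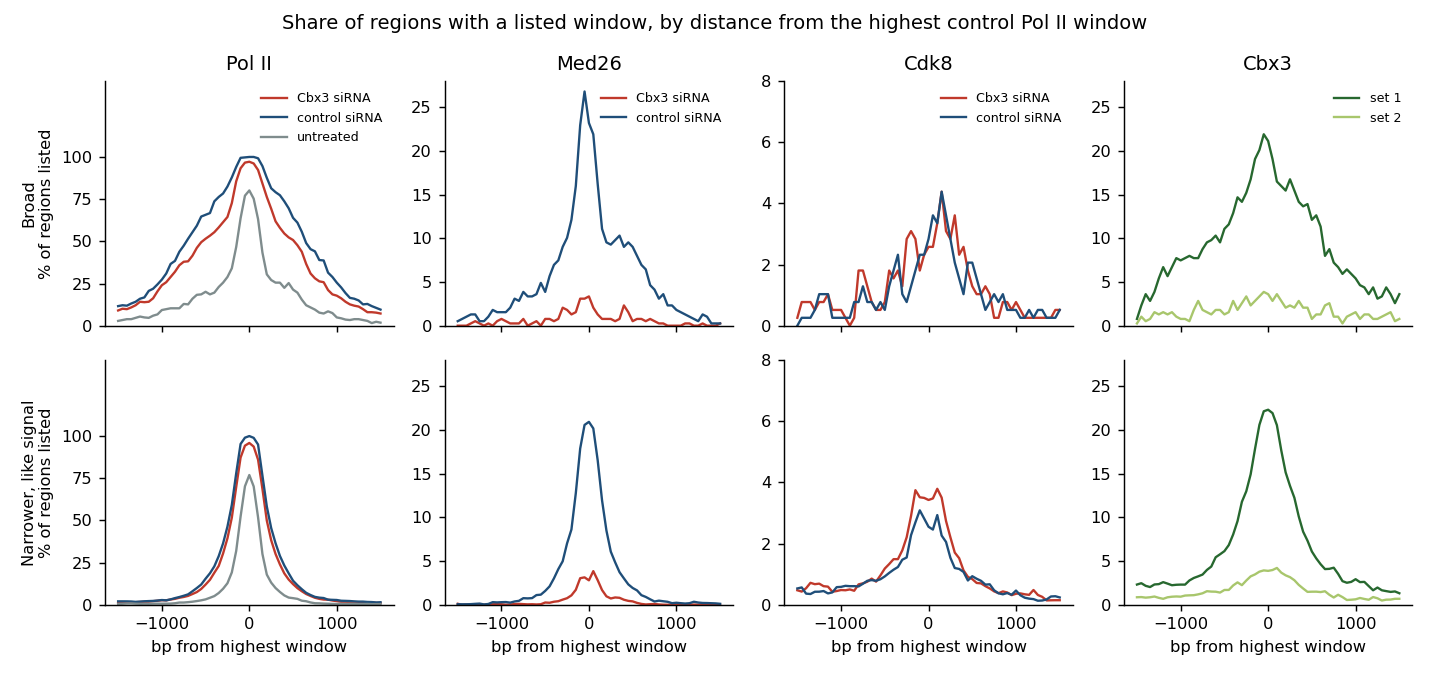
Percent of regions with a listed window (y axis) at each 50 bp step from the highest control siRNA Pol II window (x axis, bp) for Pol II, Med26, Cdk8 and Cbx3, in broad regions (top) and in narrower regions of like highest signal (bottom). Med26 after control siRNA peaked near the highest window in both. At that window it was listed in 23.2% of broad and 20.9% of narrower regions. At 50 bp to the lower-coordinate side the shares were 26.8% and 20.6%. The wider control siRNA Pol II profile of broad regions follows from how they were chosen.

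Members with no Med26 in either arm had a larger median fall of listed Pol II length than those with Med26 after control siRNA. At the highest window these groups differed little. The control siRNA length also chose the regions, and the split was not repeated with regions chosen in another list. The median log2 ratio of listed Pol II length, Cbx3 siRNA over control siRNA, was -0.26 (interval -0.37 to -0.19) in the 68 members with Med26 in both arms. It was -0.34 (interval -0.38 to -0.28) in the 203 with Med26 after control siRNA alone and -0.54 (interval -0.61 to -0.42) in 109 of the 110 with none. The intervals of the 68 and the 203 overlap. At the highest window the medians were -0.38, -0.33 and -0.30. The groups also differed in Pol II level, with median highest control signals of 45.2, 39.8 and 34.0, and the part of that level in the length difference was not tested. In the 7 members with Med26 after Cbx3 siRNA alone, the length ratio was -0.58 (interval -0.93 to -0.16). Split by Cbx3, the highest window had medians of -0.32 in the 110 members with both sets, -0.31 in 215 of the 216 with set 1 alone and -0.43 in the 46 with neither, with intervals of -0.37 to -0.27, -0.37 to -0.27 and -0.55 to -0.21. These intervals overlap.

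Members were also put in 3 groups of 130, 128 and 130 by highest control signal, from low to high, and had Med26 after control siRNA in 56.9%, 72.7% and 80.0% of cases. The shares after Cbx3 siRNA were 11.5%, 21.1% and 25.4%. Control siRNA Cdk8 was at 23.8%, 21.9% and 26.9%, Cbx3 set 1 at 85.4%, 81.2% and 85.4%, and Cbx3 set 2 at 30.8%, 32.03% and 34.6%. At least 1 of Med26, Cdk8 and Cbx3 was listed in 376 of the 388 members. The 12 with none had a median highest control signal of 30.9.

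The member with the highest Pol II signal, on chromosome 17 from 39980251 to 39982250, stood apart from the rest. Pol II reached 162 after Cbx3 siRNA, 158 after control siRNA and 168 in untreated cells. Over the same 2000 bp, Cdk8 covered all 2000 bp in both arms with highest signals of 313 and 251 (Cbx3 siRNA and control siRNA), and Cbx3 covered 2000 bp in both sets with 1412 and 893. Med26 covered 50 and 450 bp with highest signals of 112 and 144.7 (Cbx3 siRNA and control siRNA). The region thus held listed windows in all 9 libraries. Signal of one factor cannot be told apart there from signal common to all antibodies. Without it the members numbered 387, with Med26 in 19.1% after Cbx3 siRNA and 69.8% after control siRNA, Cdk8 in 25.8% and 24.03%, Cbx3 of both sets in 28.2%, and a median log2 ratio of -0.33 at the highest Pol II window.

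The other 2 members of highest Pol II differed in whether Cbx3 was listed. On chromosome 10 from 39977251 to 39978900 Pol II reached 110 after Cbx3 siRNA, 157 after control siRNA and 102 in untreated cells, with Med26 over 50 and 650 bp (Cbx3 siRNA and control siRNA) and no Cbx3 in either set. On chromosome 11 from 69571651 to 69573200 it reached 107, 150 and 135 in the same order, with Med26 over 100 bp after control siRNA and none after Cbx3 siRNA. Cbx3 covered 150 bp in set 1 and 50 bp in set 2 there, against medians of 200 and 0 bp over all members. These 2 were picked after their values were seen.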

How the data were processed

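The members and lists were chosen with earlier results of these data known. The authors deposited 50 bp windows with a signal value. Bowtie and mm9 are named in the submitters' processing notes. How windows passed, the minimum and whether the 7 inputs entered were not given in the sources used here. Listed coordinates reach 197193750 on chromosome 1. Values ran in whole steps, equal within each siRNA pair (0.0220 for Pol II, 0.0192 for Med26, 0.0282 for Cdk8), so pairs were compared as deposited; comparability was not tested.

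Windows up to 200 bp apart were merged, and every library was read within the control siRNA intervals, so signal beyond their ends is not counted. Narrower regions were weighted by 8 classes of highest signal. Changes were called at 1.5-fold. Named regions were the 10 longest, the 5 largest falls and 5 largest rises of mean signal, the 3 with most Med26, Cdk8 and Cbx3, and those missing from a Pol II list. The planned gene lists and marker genes were not run, for want of mm9 genes. Merging, weighting and ratios were tested on simulated data. Tools were scipy 1.17.1, pandas 2.3.3, numpy 2.4.6 and matplotlib 3.10.9 under Python 3.11.15. Alternatives covered merging, span, choosing library, overlap, threshold, measure, fold, matching and Cbx3 set.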

Additional observations from a re-analysis of the deposited data

How the results depend on the processing

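Depth is unknown and unlisted windows are missing values, so lengths and shares depend on each list's minimum and on how windows passed, which was not given. No paired analysis was possible because no antibody had more than 1 library in either siRNA arm. Of the values recomputed under each alternative, 148 stayed close to those reported, 71 moved and 4 reversed; the cause was not tested. The fall of the highest Pol II signal (log2) became -0.53 as summed signal and -0.14 as the mean over listed windows.

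Choosing regions in the Cbx3 siRNA list gave 241 regions, 98.3% listed in untreated Pol II and 76.8% with control siRNA Med26. Listed length then reversed to 0.11 (log2), mean signal became -0.35, broad minus narrower reversed to 0.11 for length and -0.090 for the highest signal, and the Med26 gap became 26.8 points. Choosing in the untreated list gave 18 regions, 100% listed after Cbx3 siRNA, with length at 0, mean signal at -0.31, control siRNA over untreated highest signal at 0.305, and 11.1% lower by 1.5-fold. Med26 was then listed in 11.1% and 77.8%, Cdk8 in 16.7% and 11.1% (Cbx3 siRNA and control siRNA) and Cbx3 in 33.3%. Broad minus narrower was 0 for length and 0.00025 for the highest signal, and reversed to -5.45 points for control siRNA Cdk8.

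Merging up to 50 bp gave 243 regions, 98.8% listed in untreated cells and 100% after Cbx3 siRNA. Merging up to 500 bp gave 826, with 92.0% listed in untreated cells, Med26 in 15.01% and 64.2%, control siRNA Cdk8 in 19.6% and a Cdk8 gap of 8.26 points. A span of 1000 bp gave 787 regions, 93.8% listed in untreated cells. A span of 1500 bp gave 159, 100% listed after Cbx3 siRNA, with control siRNA Med26 in 76.1% and Cbx3 in 34.0%. Requiring 1200 bp of listed windows gave 98.4% in untreated cells and 100% after Cbx3 siRNA.

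With at least 200 bp listed, untreated Pol II stood at 86.9%, Med26 at 2.06% and 39.95%, Cdk8 at 5.41% and 4.12%, Cbx3 at 2.32%, and the gaps at 2.62 points (Cdk8) and 0.917 points (Cbx3). With windows at or above their library's median, untreated Pol II stood at 81.2%, length at -0.22, mean at -0.25, control siRNA over untreated at 0.63, Med26 at 12.1% and 48.2%, Cdk8 at 17.3% and 13.9%, Cbx3 at 22.9%, and broad minus narrower at -0.016 (length), 12.15 points (Med26) and 6.02 points (Cdk8). In the fixed window, Pol II after Cbx3 siRNA stood at 100%, length at -0.22, mean at -0.24, control siRNA Med26 at 64.9%, Cdk8 at 21.4% and 19.6%, Cbx3 at 22.7%, and the gaps at 9.72, 6.23 and 4.29 points (Med26, Cdk8, Cbx3). At the smaller and the larger fold tried in place of 1.5-fold, 50.4% and 0.775% of members had a lower highest signal. Leaving out one Cbx3 set gave Cbx3 shares of 32.5% to 84.0% and gaps of 14.6 to 25.5 points.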

Other observations

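Beyond the autosomes, 4 regions of the control siRNA Pol II list reached 1200 bp. Other control Pol II regions lay near some of the broad ones: 101 members (26.0%) had another region within 500 bp and 136 (35.1%) within 1000 bp. The same count was not made for narrower regions. In members with 3 or more peaks the median log2 ratio at the highest window, Cbx3 siRNA over control siRNA, was -0.26 (interval -0.34 to -0.20), against -0.37 in those with 1 peak (interval -0.41 to -0.32); their median highest control signals were 31.3 and 48.0, and the part of that level was not tested. The 27 members with control siRNA Med26, control siRNA Cdk8 and both Cbx3 sets had a median span of 1600 bp and a ratio of -0.32.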
